A study of Mus musculus with 36 samples.

Results

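Metallothioneins and zinc handling genes were followed in mouse embryonic fibroblasts (MEFs) after 5 h with dexamethasone (Dex), a synthetic glucocorticoid, as 6 genes taken from the count table by symbol. They are the widely expressed metallothioneins Mt1 and Mt2, the metal-sensing transcription factor Mtf1, the zinc exporter Slc30a1 and the importers Slc39a14 and Slc39a8. They make up 6 of the 55487 rows of the table, and all 6 were among the 15489 genes tested. RNA-seq covered 36 libraries of 5 glucocorticoid receptor (GR) genotypes in 2 runs, with 3 libraries for each genotype, run and treatment, and each library received either vehicle or 1 μM Dex. Run 1 held GRwt/wt, GRD/D, GRD+L/D+L and GRko/ko MEFs, and run 2 held a separate set of GRwt/wt libraries beside GRL/L. GRD carries a point mutation in the dimer interface of the DNA-binding domain, GRL a point mutation in that of the ligand-binding domain. GRD+L carries both, and GRko/ko cells lack functional GR. The study also measured weaker Dex binding in GRL/L and GRD+L/D+L cells, weakest in GRL/L. Effects of the L mutation on dimers and on ligand binding therefore cannot be told apart here. At 1 μM Dex, the dose used here, the study calculated nearly full occupancy of both receptors. It also saw GR move into the nucleus in all genotypes it examined at that dose. All labels name the FVB/NJ strain, whereas the methods of the study describe the GRko mice on another background, and the GRD+L line goes back to a single founder pup. The MEFs were primary cultures prepared from embryos, each culture from a different mouse according to the study. The question was how far the Dex response of each gene changes with either mutation.

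As background, metallothioneins are small cysteine-rich proteins that bind zinc and copper and buffer the free metal in the cell. MTF1 is activated by zinc and binds short metal response elements in the promoters of Mt1, Mt2 and Slc30a1, so that a rise in free zinc is answered by storage and by export. Metallothioneins are also classical glucocorticoid-induced genes, and Dex-bound GR acts on them through its own binding sites. SLC30 proteins move zinc out of the cytosol, and SLC39 proteins move it in. SLC39A14 and SLC39A8 also carry manganese, cadmium and iron.

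The genes lie on separate chromosomes apart from the metallothionein pair. In mm10, Mt2 occupies chr8:94172664-94173568 and Mt1 chr8:94179082-94180327, both on the plus strand. Mtf1 lies at chr4:124802104-124849800, Slc30a1 at chr1:191906767-191913247 and Slc39a8 at chr3:135825279-135888572, all on the plus strand, and Slc39a14 at chr14:70303469-70351425 on the minus strand. An antisense transcript, Gm45774, shares 432 of the 588 exon bases of Mt2, and 54.15% of the 50-base stretches of Mt2 occur in no other annotated transcript. All such stretches of Mt1 were unique to it. The strand setting of the counting is not given in the sources used here, so reads of Mt2 and Gm45774 cannot be told apart on that ground, and the same holds for 468 exon bases of Slc30a1 shared with 1700034H15Rik and 721 of Mtf1 shared with 1110065P20Rik.

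Because Mt1 and Mt2 moved together, the sequence upstream of their starts is shown with the cores of the metal response element (TGCACNC or TGCGCNC, either strand) in capitals. The sequences are the 250 bases before the RefSeq start on GRCm38.p6, plus strand, at chr8:94178839-94179088 for Mt1 and chr8:94172368-94172617 for Mt2.

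Mt1: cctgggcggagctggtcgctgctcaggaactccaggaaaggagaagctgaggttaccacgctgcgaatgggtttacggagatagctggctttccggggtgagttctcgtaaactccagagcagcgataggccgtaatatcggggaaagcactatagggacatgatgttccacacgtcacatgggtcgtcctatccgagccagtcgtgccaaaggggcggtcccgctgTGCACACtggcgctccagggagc

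Mt2: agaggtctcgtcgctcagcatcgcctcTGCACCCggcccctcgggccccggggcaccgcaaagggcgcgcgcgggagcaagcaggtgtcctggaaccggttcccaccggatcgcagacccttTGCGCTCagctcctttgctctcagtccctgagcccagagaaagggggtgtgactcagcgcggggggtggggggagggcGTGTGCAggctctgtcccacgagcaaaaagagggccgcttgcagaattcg

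The Mt1 window held 1 core, the Mt2 window 3, the Slc30a1 window 1 and the Mtf1 window 0, while of the 2 RefSeq start windows of Slc39a8 1 held a core and the other none. Of 32851 such windows in RefSeq, 21.4% held at least 1 core and 1.26% at least 3. The full palindromic GR site, AGAACA followed after 3 bases by TGTTCT, was in none of these windows and in 0.00913% of all windows. Its AGAACA arm alone (either strand) was in the Mtf1 window and in 16.1% of all windows. These matches are letters and not measured binding. The RefSeq table held no window for Slc39a14.

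Both metallothionein genes have annotated first exons that run upstream of a TATAAA stretch, which begins 101 bases before the coding start of Mt1 and 95 bases before that of Mt2. Further cores lie in these exons, so they are given here as short sites in order along the exon, with the core in capitals and the plus strand shown.

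Mt1 site 1: gctcTGCACTCcgcc

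Mt1 site 2: aaagTGCGCTCggct

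Mt1 site 3: tgctGGGTGCAaacc

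Mt1 site 4: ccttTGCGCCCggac

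Mt2 site 1: gggcGTGTGCAggcg

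Mt2 site 2: gggcGCGTGCAtggt

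Mt2 site 3: ctttTGCGCTCgacc

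The 4 cores of Mt1 lie between chr8:94179091 and chr8:94179193, and the 3 of Mt2 between chr8:94172676 and chr8:94172735. All of them lie upstream of the TATAAA stretch of their gene. Whether these annotated exon bases are transcribed in the MEFs was not tested. Within the last 180 spliced bases before the coding start, Mt1-201 held 2 cores and Mt2-201 held 3, whereas 3.24% of 12063 annotated leaders of at least that length held at least 2 and 0.589% at least 3. Slc39a8 held 1 core in this stretch, and Mtf1, Slc30a1 and Slc39a14 held 0. No full GR site was found in any of the 6 stretches.

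Library totals ran from 15280166 to 28662608 counts, with higher totals in run 2. The summed level of 7 fibroblast markers was 19900 to 31400 CPM (counts scaled to library size, with TMM factors) over all libraries. Transcripts of other lineages were present. The sum of 4 skeletal muscle markers was 370 to 804 CPM in run 1 and 17.2 to 29.1 CPM in run 2. Over all libraries Acta1 ranged from 3.82 to 756 CPM and Myod1 reached at most 0.304 CPM. The sum of 4 cartilage markers was 178 to 505 CPM in GRko/ko and 17 to 89.2 CPM elsewhere, and that of 4 endothelial markers, mostly Kdr, was 3.79 to 17.4 CPM. In GRwt/wt of run 2, 4 epithelial markers summed to 2.15 to 47.3 CPM with vehicle and 1.52 to 7.09 CPM with Dex. Their sum was at most 1.59 CPM elsewhere. A sum of 4 neural markers was 31.1 to 64.3 CPM over all libraries. Macrophage markers were present and differed by genotype, from 29.2 CPM in GRD+L/D+L to 2990 CPM in GRko/ko for the sum of 8 genes. Transcripts of Nr3c1, which encodes GR, were at 15.9 to 20.4 CPM in GRko/ko and at 47.8 to 105 CPM elsewhere. Xist exceeded the summed Y-linked transcripts in all 6 GRwt/wt libraries of run 1 and all 6 GRD/D libraries. It did so in none of the other genotypes or of run 2. The difference between these sets and library sex cannot be told apart. Within each genotype and run, all 6 libraries thus had the same sex by these transcripts. Whether the libraries of a group came from separate embryos was not tested. If they share a culture, the standard errors and p-values given below cover only the spread within it. In bulk RNA, fewer cells of a type and less RNA per cell cannot be told apart.

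Dex raised both metallothioneins in GRwt/wt MEFs. In run 1, Mt1 stood at 107.2, 116.5 and 111.5 CPM in the vehicle libraries and at 408.3, 405.2 and 429.8 CPM with Dex. Mt2 stood at 49.25, 55.35 and 48.72 CPM with vehicle and at 465.6, 484.8 and 507.4 CPM with Dex. The lowest Dex library lay far above the highest vehicle library for both genes. The rise was 3.71-fold for Mt1 (log2 change 1.89, SE 0.07, edgeR quasi-likelihood adjusted p = 4.33e-21) and 9.51-fold for Mt2 (3.25, SE 0.09, adjusted p = 3.18e-25). By p-value Mt2 ranked 3 and Mt1 ranked 10 of the 15489 genes in this contrast.

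In run 2 the GRwt/wt rise was larger. Mt1 went from 89.59, 88.66 and 96.08 CPM to 849.5, 658.7 and 659.7 CPM, and Mt2 from 61.76, 61.56 and 69.45 CPM to 1420, 1166 and 1180 CPM. Replicate 4 gave the highest Dex value of both genes, and vehicle and Dex libraries were again fully separated. The fold was 7.90 for Mt1 (log2 change 2.98, SE 0.07) and 19.5 for Mt2 (4.29, SE 0.09). The Dex change exceeded that of run 1 by 1.09 for Mt1 (95% interval 0.89 to 1.30, adjusted p = 4.6e-10) and by 1.04 for Mt2 (0.79 to 1.29, adjusted p = 9.96e-08) on the log2 scale. These were 2 of the 6 genes, where 7.09% of all genes passed. Dex replicate 4 stood apart from replicates 5 and 6 over all genes, and without it the difference between runs was 0.96 for Mt1 and 0.94 for Mt2. Run, library sex and the level of muscle markers changed together here and cannot be told apart. Because GRwt/wt responded differently in the 2 runs, each mutant was compared only with GRwt/wt of its own run.

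**Figure D1:**
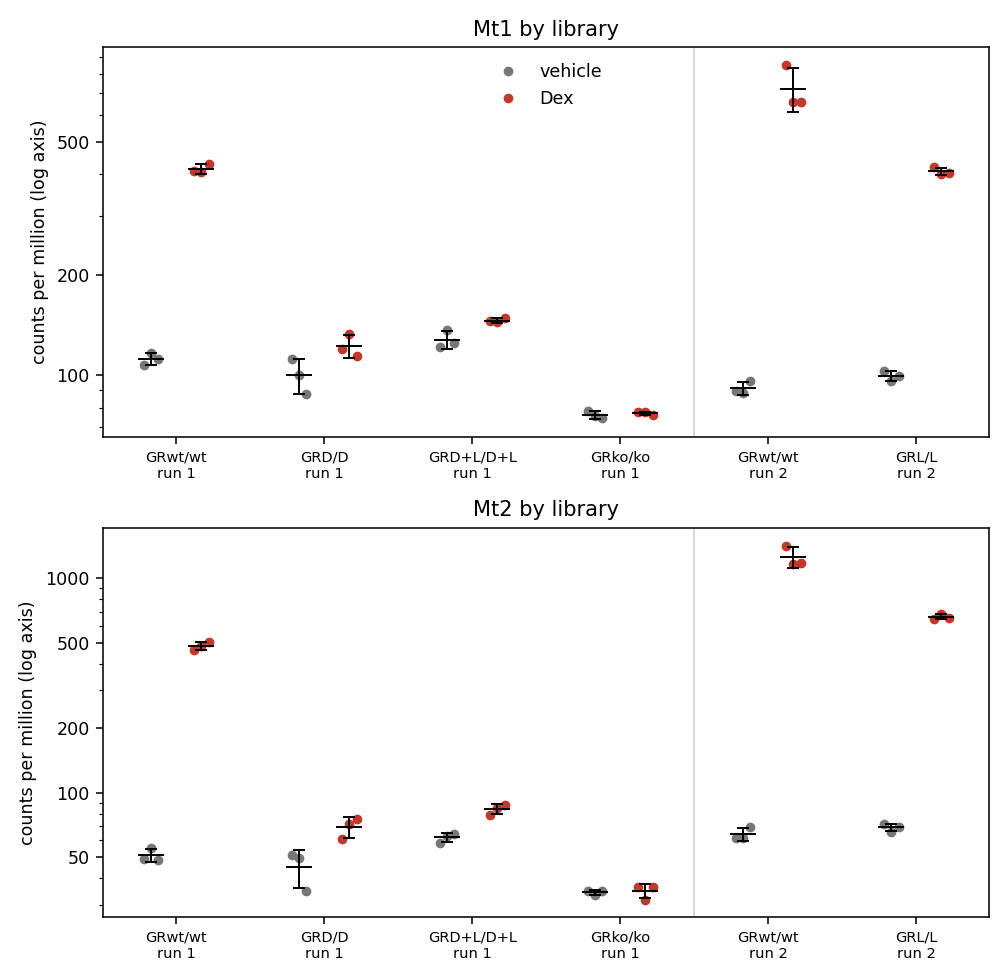
Mt1 and Mt2 in CPM (log axis) for each library by genotype and run, with vehicle in grey and Dex in red, and the mean and SD of 3 libraries in black. Dex and vehicle libraries are far apart in GRwt/wt of both runs and in GRL/L, close in GRD/D and GRD+L/D+L and overlapping in GRko/ko.

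In GRL/L MEFs, Mt1 rose from 103.1, 96.37 and 99.78 CPM to 420.6, 400.8 and 402.5 CPM, and Mt2 from 71.48, 65.9 and 69.52 CPM to 649.3, 681.5 and 653 CPM. The groups did not overlap, and every Dex library of GRL/L lay below every Dex library of GRwt/wt in run 2. The rise was 4.09-fold for Mt1 (log2 change 2.03, SE 0.07) and 9.59-fold for Mt2 (3.26, SE 0.09). It was smaller than in GRwt/wt of run 2 by 0.95 for Mt1 (difference -0.95, 95% interval -1.15 to -0.75, adjusted p = 1.49e-07) and by 1.03 for Mt2 (difference -1.03, -1.27 to -0.79, adjusted p = 5.16e-07). In this comparison 2 of the 6 genes passed, against 1.85% of all genes. Without Dex replicate 4 of GRwt/wt the differences were -0.82 and -0.93 (adjusted p = 1.79e-08 and 6.46e-07). With GRwt/wt pooled over the runs, as in the formula of the study, these 2 differences were no longer past the threshold, at adjusted p = 0.444 and 0.218.

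In GRD/D MEFs the response was small but present. Mt2 went from 51.23, 49.6 and 34.78 CPM to 60.8, 71.54 and 75.53 CPM, without overlap, a 1.54-fold rise (log2 change 0.62, SE 0.09, adjusted p = 9.51e-06). Mt1 went from 111.9, 99.86 and 87.88 CPM to 119.9, 133.2 and 114.1 CPM, a 1.23-fold rise (log2 change 0.30, SE 0.07, adjusted p = 0.00635). The highest vehicle and the lowest Dex library of Mt1 lay close together. Vehicle replicate 3 stood apart from the other vehicle libraries of GRD/D over all genes and gave the lowest vehicle value of both metallothioneins. Without it the Mt2 change was 0.46 (adjusted p = 0.000194). The Mt1 call was lost without Dex replicate 2 or without vehicle replicate 3, with adjusted p up to 0.0834, and under the formula of the study, at 0.245.

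In GRD+L/D+L MEFs, Mt2 went from 58.67, 63.19 and 64.02 CPM to 79.15, 85.39 and 87.88 CPM, a 1.36-fold rise (log2 change 0.44, SE 0.09, adjusted p = 0.00134), which did not pass under the formula of the study, at adjusted p = 0.143. Mt1 went from 121.3, 136.8 and 125.1 CPM to 144.9, 144 and 148.6 CPM. These groups did not overlap either, but the change of 0.19 did not pass (SE 0.07, adjusted p = 0.163). Without the filter on low counts it passed, at 0.20 (adjusted p = 0.0238). The double mutant did not differ detectably from GRD/D, with a difference of -0.11 for Mt1 (95% interval -0.32 to 0.11, adjusted p = 0.767) and of -0.18 for Mt2 (-0.45 to 0.09, adjusted p = 0.664). None of the 6 genes passed in that comparison, by edgeR at either the adjusted or an unadjusted p of 0.05 or by DESeq2, where 0.0775% of all genes passed.

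In GRko/ko MEFs the vehicle and Dex libraries overlapped. Mt1 stood at 78.33, 75.45 and 74.27 CPM with vehicle and at 77.36, 77.37 and 75.92 CPM with Dex, and Mt2 at 34.87, 33.45 and 34.96 CPM and at 36.39, 31.82 and 36.52 CPM. The changes were 0.02 for Mt1 (95% interval -0.14 to 0.17) and 0.02 for Mt2 (-0.19 to 0.23), with adjusted p = 0.996 for both.

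Set against GRwt/wt of run 1, whose libraries all 3 comparisons share, the Mt1 change was lower by a log2 difference of -1.60 in GRD/D (SE 0.10, adjusted p = 9.41e-14), -1.70 in GRD+L/D+L (SE 0.10, adjusted p = 2.69e-14) and -1.88 in GRko/ko (SE 0.11, adjusted p = 9.55e-16). The Mt2 change was lower by -2.63 (SE 0.13, adjusted p = 8.61e-17), -2.81 (SE 0.13, adjusted p = 8.57e-18) and -3.23 (SE 0.14, adjusted p = 2.02e-19). Among the 6 genes, 2 passed in GRD/D, 2 in GRD+L/D+L and 3 in GRko/ko, against 3.29%, 3.23% and 8.48% of all genes.

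The plot of Dex changes gives the size of each response with its interval. Of the 6 genes, 3 passed in GRwt/wt of run 1, 5 in GRwt/wt of run 2, 4 in GRL/L, 2 in GRD/D, 2 in GRD+L/D+L and 0 in GRko/ko. The shares of all genes that passed were 13.9%, 31.6%, 19.1%, 11.9%, 5% and 0%. The median log2 change of the 6 genes was 0.17 and 0.32 in the GRwt/wt runs, 0.19 in GRL/L, 0.07 in GRD/D, 0.08 in GRD+L/D+L and 0.02 in GRko/ko, and that of all genes lay between -0.011 and -0.00027. In GRko/ko, none of the 6 genes had an unadjusted p under 0.05 and none passed by DESeq2, and over all genes 859 had such a p and DESeq2 called 1.

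**Figure D2:**
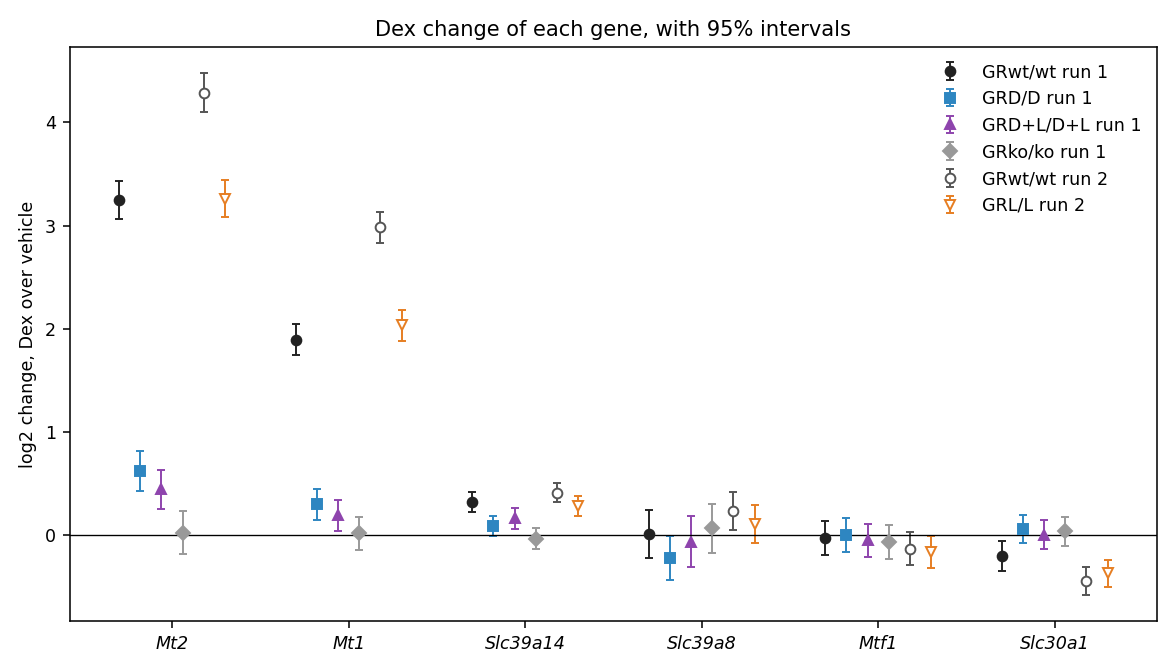
Log2 change of Dex over vehicle for each gene (x axis) in each genotype and run (symbols, open for run 2), with 95% intervals from the edgeR fit. Mt2 and Mt1 lie far above 0 in GRwt/wt and GRL/L, whereas the changes of the other genes lie between -0.45 and 0.41 in every genotype.

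The share of the GRwt/wt log2 change that remained was compared with that of 3 GR target genes: Fkbp5, a co-chaperone of GR, Tsc22d3, which encodes the anti-inflammatory protein GILZ, and Dusp1, a phosphatase of MAP kinases. In GRD/D, 15.6% of the GRwt/wt change remained for Mt1 and 19.1% for Mt2, against 41.5% for Fkbp5 and 28.1% for Tsc22d3. In GRD+L/D+L, 10.1% remained for Mt1 and 13.6% for Mt2, against 38.5% for Fkbp5 and 25.8% for Tsc22d3. In GRL/L the shares were 68.1% and 76.1% of the run 2 change, against 89.1% for Fkbp5, 82.2% for Tsc22d3 and 58.3% for Dusp1, which lay below both metallothioneins. In run 1 Dusp1 changed by 0.34 in GRwt/wt, by -0.40 in GRD/D and by -0.31 in GRD+L/D+L. The order of these shares was not tested.

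Mt2 moved more than Mt1 wherever both rose, so the ratio of their counts shifted. The ratio of Mt2 to Mt1 counts was 0.457 ± 0.0192 (SD, n = 3) with vehicle and 1.17 ± 0.0289 with Dex in GRwt/wt of run 1, and 0.702 ± 0.0181 and 1.74 ± 0.0629 in run 2. In GRL/L it went from 0.691 ± 0.00671 to 1.62 ± 0.0784. In GRD/D it went from 0.45 ± 0.0509 to 0.569 ± 0.0821, and in GRD+L/D+L from 0.486 ± 0.025 to 0.577 ± 0.0265, in each case without overlap between the groups. In GRko/ko it was 0.453 ± 0.0153 and 0.454 ± 0.0376, and the groups overlapped. The ratio carries the doubt about the antisense partner of Mt2. Gm45774 itself had 93 counts in the 3 Dex libraries of GRwt/wt in run 1 and 9 in their vehicle libraries, but 18 and 6 in run 2, where Mt2 counts were higher. From vehicle to Dex, Gm45774 went from 3 to 26 counts in GRL/L. It went from 3 to 17 in GRko/ko, where Mt2 did not change detectably. In GRD/D it went from 14 to 15, and in GRD+L/D+L from 18 to 13. Together Mt1 and Mt2 summed to 154.8 CPM of the raw library totals with vehicle and 829.1 with Dex in run 1, and 171.8 and 2114 in run 2 (means of 3 libraries).

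**Figure D3:**
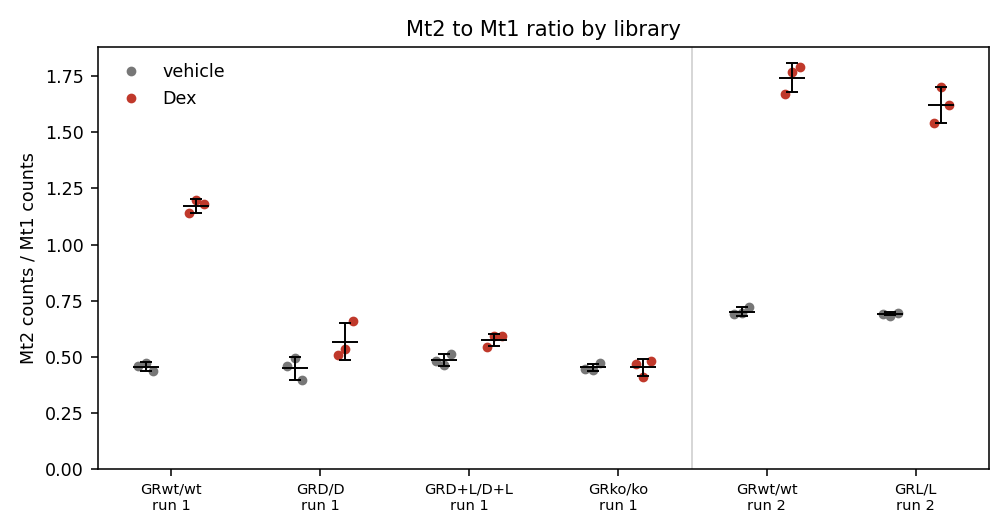
Ratio of Mt2 to Mt1 counts in each library by genotype and run, vehicle in grey and Dex in red, with mean and SD of 3 libraries in black. The Dex libraries of GRwt/wt and GRL/L lie between 1.14 and 1.79, and those of GRD/D, GRD+L/D+L and GRko/ko reach at most 0.662.

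Without Dex the 2 metallothioneins also differed between genotypes. In GRko/ko vehicle libraries Mt1 was lower than in GRwt/wt of run 1 by a log2 difference of -0.56 (76.0 ± 2.09 against 111.7 ± 4.68 CPM, SD, n = 3, edgeR adjusted p = 1.42e-07) and Mt2 by -0.57 (34.4 ± 0.849 against 51.1 ± 3.69 CPM, edgeR adjusted p = 1.06e-05), with no overlap. Slc39a14 was lower as well, by -0.17 (adjusted p = 0.0035), so that 3 of the 6 genes passed where 45.7% of all genes did. With GRwt/wt pooled over the runs, Mt1 and Mt2 did not pass, at adjusted p = 0.117 and 0.177. In GRD+L/D+L, Mt1 was higher by 0.19 (adjusted p = 0.0476), Mt2 was higher by 0.28 (adjusted p = 0.0245) and Slc39a14 was lower by a difference of -0.20 (adjusted p = 0.00219), 3 of the 6 genes against 29.9% of all genes. The Mt1 call was lost in 5 and the Mt2 call in 4 of the 6 fits that left out a library, with adjusted p up to 0.241 and 0.1. In GRD/D, 1 of the 6 genes passed, against 9.55% of all genes. In GRL/L none passed by edgeR, at an unadjusted p of 0.05 or by DESeq2, against 11.3% of all genes. Macrophage markers summed to 179 to 317 CPM in vehicle libraries of GRwt/wt in run 1, to 2690 to 2990 CPM in GRko/ko and to 30.3 to 38.9 CPM in GRD+L/D+L, cartilage markers to 18.6 to 20.9, 178 to 505 and 25.4 to 27 CPM, and library sex differed too. The study also describes the GRko mice on another strain background than the other lines. Strain and the GRko genotype cannot be told apart here. The part of the marker and sex differences was not tested.

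Slc39a14 rose modestly where GR was intact or carried only the L mutation. In GRwt/wt of run 1 it went from 100.4, 111.9 and 104 CPM to 130.7, 133.5 and 130.6 CPM, and in run 2 from 92.13, 94.72 and 101.3 CPM to 117.1, 133.7 and 132.2 CPM. No Dex library reached down to a vehicle library in either run. The log2 change was 0.32 (SE 0.05, adjusted p = 3.99e-06) and 0.41 (SE 0.05, adjusted p = 5.02e-09). In GRL/L it was 0.28 (SE 0.05, adjusted p = 1.44e-05), from 97, 94.4 and 95.65 CPM to 118.6, 117.7 and 112.5 CPM.

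In GRD+L/D+L, Slc39a14 went from 91.49, 91.91 and 92.53 CPM to 102.8, 101.7 and 104.5 CPM. These groups were tight and did not overlap, and the change of 0.16 passed narrowly (SE 0.05, adjusted p = 0.0463). The call was lost in all 6 fits without 1 library, with adjusted p from 0.0922 to 0.164, and with the size factors of DESeq2, at 0.0523. In GRD/D the libraries overlapped, at 108, 107.7 and 116.9 CPM with vehicle and 117.6, 113.2 and 122.8 CPM with Dex (log2 change 0.09, adjusted p = 0.261), and in GRko/ko the change was -0.04 (adjusted p = 0.978). The response differed from GRwt/wt of run 1 in GRko/ko, by -0.36 (SE 0.07, adjusted p = 0.000366). The difference of GRD/D was -0.23 (SE 0.07, adjusted p = 0.0523) and passed in 5 of 7 alternative fits, with adjusted p from 0.00191 to 0.0494. That of GRD+L/D+L was -0.16 (adjusted p = 0.319) and that of GRL/L in run 2 was -0.13 (adjusted p = 0.428).

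Slc30a1, which exports zinc across the plasma membrane, went the other way in run 2. It fell from 16.05, 17.03 and 16.01 CPM to 11.92, 12.51 and 11.58 CPM in GRwt/wt (log2 change -0.45, SE 0.07, adjusted p = 1.68e-06) and from 17.07, 18.16 and 17.59 CPM to 13, 14.43 and 13.43 CPM in GRL/L (-0.37, SE 0.07, adjusted p = 3.49e-05). Dex libraries lay below vehicle libraries throughout. In GRwt/wt of run 1 they did so too, at 22.06, 20.42 and 20.05 CPM against 18.56, 18.67 and 17.07 CPM, but the change of -0.20 just missed the threshold (SE 0.07, adjusted p = 0.0503), and it passed with a filter of at least 10 counts in every library, at 0.0411. The changes in GRD/D, GRD+L/D+L and GRko/ko were 0.05, 0.00 and 0.03, with overlapping groups. Their differences from GRwt/wt were 0.26, 0.21 and 0.24 with adjusted p = 0.2, 0.389 and 0.141, and passed under the formula of the study, where GRwt/wt is pooled over the runs, at 0.00404, 0.0161 and 0.00378. Each library held 278 to 574 counts of Slc30a1, so changes of this size rest on limited depth.

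Neither zinc nor the activity of MTF1 was measured. Mtf1, whose protein is activated by zinc, passed in no comparison of the main fit. Its Dex changes ran from -0.16 in GRL/L (adjusted p = 0.143) to -0.00 in GRD/D (adjusted p = 0.997), and the 95% intervals over the 6 Dex contrasts lay between -0.32 and 0.16. In GRL/L the Dex libraries, at 23.1, 20.82 and 23.85 CPM, lay below the vehicle libraries, at 25.92, 25.47 and 24.71 CPM, and in the other sets the treatments overlapped. Vehicle levels were 36.1 ± 1.48 CPM in GRwt/wt of run 1 and 25.2 ± 1.72 CPM in run 2 (SD, n = 3). Without Dex replicate 6 of GRwt/wt in run 2, the change of that contrast passed, at -0.22 (adjusted p = 0.0458).

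Slc39a8 lay between 6.268 and 12.66 CPM over all libraries. In GRwt/wt of run 2 it went from 10.12, 10.69 and 10.36 CPM to 11.68, 12.66 and 12.33 CPM, without overlap, and the change of 0.24 passed narrowly (SE 0.09, adjusted p = 0.0459). The call was lost in 5 of the 6 fits without 1 library, with adjusted p up to 0.123. In run 1 the change was 0.01 (95% interval -0.22 to 0.24), and no Dex change of a mutant passed. Its level in vehicle libraries of GRD/D was 11.6 ± 0.788 CPM against 8.74 ± 1.38 CPM in GRwt/wt of run 1 (SD, n = 3, log2 difference 0.41, edgeR adjusted p = 0.011), and this call was lost in 3 of the 6 fits without 1 library, with adjusted p up to 0.125.

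**Figure D4:**
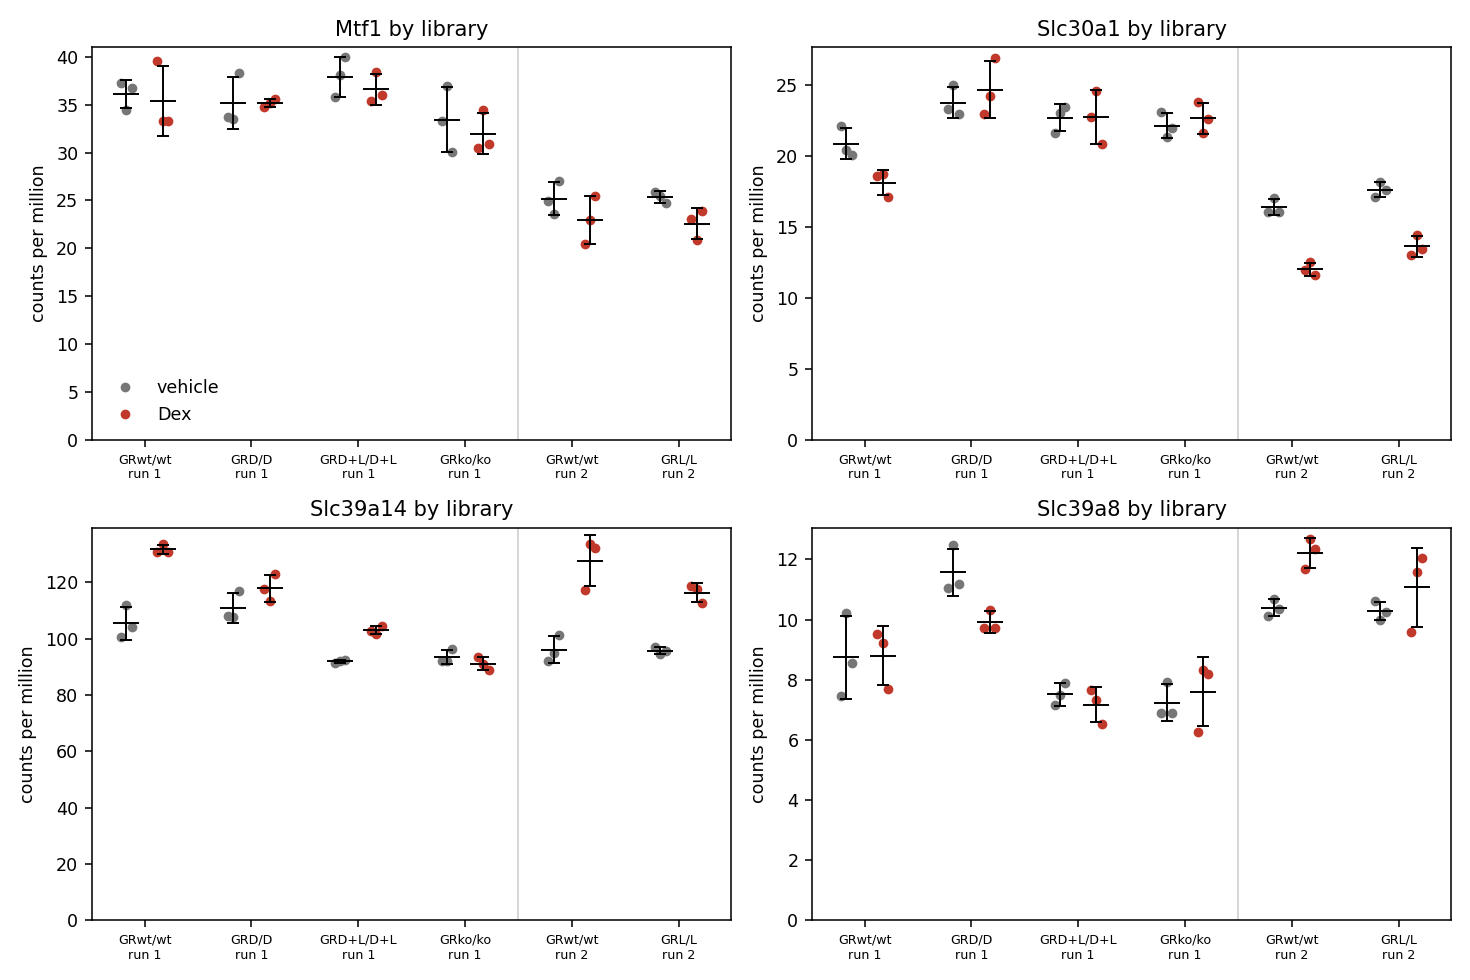
Mtf1, Slc30a1, Slc39a14 and Slc39a8 in CPM for each library by genotype and run, vehicle in grey and Dex in red, with mean and SD of 3 libraries in black. Slc39a14 rises and Slc30a1 falls with Dex in GRwt/wt and GRL/L of run 2, while the Mtf1 values of the 2 treatments overlap in every genotype and run except GRL/L.

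Per kilobase of annotated exon, which is the scale on which genes can be compared, vehicle levels in GRwt/wt of run 1 were 89.7 CPM for Mt1 and 86.9 CPM for Mt2, followed by Slc39a14 at 9.99, Mtf1 at 4.06, Slc30a1 at 3.97 and Slc39a8 at 1.14. Mt1 and Mt2 were close to each other on this scale, as were Mtf1 and Slc30a1. With Dex, Mt2 stood at 826.4 and Mt1 at 332.6 CPM per kilobase. The annotated exons of Mt1 include a transcript that retains its introns, so its exon length of 1246 bases exceeds that of the spliced RNA and its level per kilobase is a low estimate.

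The metallothionein locus holds 2 further family members upstream of Mt2. Mt4, best known from stratified epithelia, had 0 counts in every vehicle library of run 1 and 5, 11 and 8 counts with Dex in GRwt/wt, at least 7.47-fold higher against a floor of 3 counts over the group (edgeR adjusted p = 0.00168). In run 2 it had 0, 0 and 1 counts with vehicle and 20, 22 and 18 with Dex in GRwt/wt (ratio 63.5, 95% counting interval 11 to 2550, adjusted p = 3.62e-06), and 3 against 24 counts over the libraries of GRL/L (ratio 9.31, interval 2.83 to 48.3). In the Dex libraries of GRD/D, GRD+L/D+L and GRko/ko it had 3, 1 and 1 counts in all. These intervals cover counting error only. Outside the Dex libraries of GRwt/wt, Mt4 was too low to pass the filter on low counts. Its adjusted p therefore rest on a choice by the libraries where it is high and are only descriptive. Mt3, known from brain, had 49 counts over the 3 vehicle libraries and 190 over the 3 Dex libraries of GRwt/wt in run 2 (log2 change 2.03, SE 0.28, adjusted p = 5.18e-07), and 64 and 169 in GRL/L. In run 1 it had 3 and 9 counts in GRwt/wt, which did not pass (adjusted p = 0.4), but 159 and 128 in GRko/ko. In GRD/D it had 0 counts with vehicle and 8 with Dex, 7 of them in a single library (adjusted p = 0.0361).

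The nearest other genes moved far less than the pair. Upstream of Mt2, beyond Mt3 and Mt4, Bbs2 changed by 0.21 and 0.20 in GRwt/wt of runs 1 and 2 (adjusted p = 0.465 and 0.171). Downstream of Mt1, Nup93 changed by 0.15 (adjusted p = 0.0358) in run 1 and by 0.01 (adjusted p = 0.884) in run 2. Gm39228 and Rpl10-ps5 had too few counts to be tested.

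Over both transporter families, 24 zinc transporter genes were in the table and 19 were tested. In GRwt/wt of run 1, Slc39a14 passed upwards and Slc30a4 downwards, and these were the 2 that passed. In run 2, 9 passed, 4 upwards and 5 downwards, and in GRL/L 5 passed, 2 upwards and 3 downwards. In GRD/D 5 passed, 1 upwards and 4 downwards, in GRD+L/D+L 1 and in GRko/ko 0. All genes passed at 13.9% in run 1, 31.6% in run 2, 19.1% in GRL/L, 11.9% in GRD/D, 5% in GRD+L/D+L and 0% in GRko/ko. Apart from Slc30a1, the exporters had 1 of 6 tested genes past the threshold in run 1 and 3 in run 2. Slc30a4 fell in both, by a log2 change of -0.23 (adjusted p = 0.0132) and -0.20 (adjusted p = 0.00509). The call was lost in run 2 without Dex replicate 4, at -0.14 (adjusted p = 0.0688), and in run 1 without Dex replicate 2 (0.074) or vehicle replicate 2 (0.0633). The other importers had 0 of 10 past the threshold in run 1 and 3 in run 2, with a median change of 0.03 and -0.02, against -0.00 and -0.01 over all genes. No importer other than Slc39a14 passed in both runs.

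Among 8 genes of copper handling, Slc31a2, of the copper transporter family, rose by 0.50 in run 1 and 0.38 in run 2, and Ccs, the copper chaperone of superoxide dismutase, by 0.25 and 0.19. The list had 2 genes higher and 0 lower in run 1 and 4 higher and 0 lower in run 2, with median changes of 0.16 and 0.15, where 13.9% and 31.6% of all genes passed. The Ccs call was lost in run 2 without Dex replicate 4, at 0.09 (adjusted p = 0.29), and in run 1 without vehicle replicate 2 or 3 (0.0839 and 0.0843). Slc31a2 also passed in GRD/D, GRD+L/D+L and GRL/L. Among 8 genes of iron handling, 1 rose and 4 fell in GRwt/wt of each run, with median changes of -0.12 and -0.15. Aco1, an iron-regulated RNA-binding protein and aconitase, rose in run 1 and Fth1, the ferritin heavy chain, in run 2. The genes that fell were the same in both runs: the iron exporter Slc40a1 by a log2 change of -0.90 and -0.89, Hmox1, which degrades haem, by -0.38 and -0.58, the iron sensor Ireb2 by -0.25 and -0.22, and the transferrin receptor Tfrc by -0.26 and -0.23. The Tfrc call was lost in 5 of 6 fits without 1 library in run 1 (adjusted p up to 0.0951) and in 4 of 6 in run 2 (up to 0.19), and in run 2 also with the size factors of DESeq2 (0.0542), the replicate block (0.0719) and the run alone (0.0915). The Slc40a1 call in run 1 was lost in 3 of 6 such fits (adjusted p up to 0.118). In GRD/D, Tfrc, Slc40a1 and Ireb2 also passed downwards. In GRL/L, Tfrc, Slc40a1 and Hmox1 passed downwards and Fth1 and Aco1 upwards. None of the list passed in GRD+L/D+L or GRko/ko. Mean Tfrc went from 118.6 to 83.1 CPM in GRD/D, against 86.1 to 72 CPM in GRwt/wt of run 1. It went from 42.5 to 27.8 CPM in GRL/L, against 28 to 23.9 CPM in GRwt/wt of run 2. Slc40a1 is strong in macrophages, and the macrophage marker sum was 179 to 317 CPM with vehicle and 187 to 306 CPM with Dex in GRwt/wt of run 1, and 467 to 491 and 428 to 476 CPM in run 2.

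Oxidative and heat stress genes share metals and free radicals as triggers with the metallothioneins. Of 9 such genes, 2 rose and 3 fell in GRwt/wt of run 1, and 3 rose and 4 fell in run 2. Over all genes, 13.9% passed in run 1 and 31.6% in run 2. Gclc, the catalytic subunit of glutathione synthesis, rose by 0.47 and 0.43, whereas its partner subunit Gclm fell by a log2 change of -0.32 and -0.51. The heat shock gene Hspa1a rose by 0.71 and 0.79, but in run 1 its call was lost in 4 of 6 fits without 1 library, with changes of 0.52 to 0.98 and adjusted p up to 0.233. Nqo1, a quinone reductase, changed by -0.37 and -0.64, and thioredoxin reductase Txnrd1 by -0.31 and -0.36. In GRko/ko none of the 15489 genes tested passed. The genes on the lists of other metallothioneins, zinc transporters, copper, iron and stress genes were no exception.

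Across the 36 libraries, the log2 CPM of Mt1 and Mt2 were most like each other, with a Pearson correlation of 0.986. Next for Mt1 came Eef2k (0.976), Fam160a1 (0.966) and Mum1l1 (0.964), and for Mt2 Eef2k (0.983), Mum1l1 (0.97), Klf9 (0.964) and Tsc22d3 (0.961). These libraries share genotype, treatment and run, so the values describe likeness of pattern over 12 groups. Eef2k, the kinase of translation elongation factor 2, had fitted log2 changes of 1.00 and 1.13 in GRwt/wt of runs 1 and 2, 0.23 in GRD/D and 0.75 in GRL/L. Klf9, a transcription factor gene that responds to glucocorticoids, had values of 1.05 and 1.24 in GRwt/wt, 0.37 in GRD/D and 1.18 in GRL/L.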

How the data were processed

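The 36 MEF libraries were prepared with a TruSeq kit and sequenced on an Illumina NextSeq instrument. The authors aligned reads to mm10 with HISAT2 2.1.0 and counted uniquely mapped reads per gene with featureCounts 2.0.0. The deposited values are raw counts per gene, and the annotation and strand setting are not given in the sources used here. Totals were 15280166 to 28662608 counts, and the precision of low genes is limited by these totals.

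Samples were grouped by genotype, treatment and run. The sample titles name no run, so the 2 runs follow the study's account of an experiment in 2 parts. GRwt/wt replicates 4 to 6 were placed with GRL/L. Counts were filtered with filterByExpr, scaled by TMM and fitted with edgeR 4.0.16 (R 4.3.3) as 12 group means over all 36 libraries, with quasi-likelihood tests and Benjamini-Hochberg adjustment over 15489 genes. A gene passed at an adjusted p of at most 0.05. The fold limit of the study, a log2 change of 1, was not applied. CPM are TMM-scaled. In the comparisons of libraries within groups, 36 pairs all differed by more than sampling noise, with a mean chi-square per gene of 1.64 to 30.6. Mean ± SD are over 3 libraries. The named genes were the 6 genes, those of the fixed lists that passed in GRwt/wt of both runs, GR targets, neighbours of the metallothionein locus and the 5 genes most correlated with Mt1 and Mt2, of which 1 is not reported here. The members and lists were chosen with earlier results of these data known. Alternatives were DESeq2 1.42.0 with the formula of these contrasts, its size factors in edgeR, other filters, a replicate block, fits on a single run, the formula of the study with GRwt/wt pooled over runs, and leaving out each library. The scripts were tested on simulated data.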

Additional observations from a re-analysis of the deposited data

Results flagged for a closer look

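The Dex response of 3 genes differed between genotypes or runs by a test of the difference itself, an interaction contrast in the edgeR fit. For Mt1, the log2 difference from GRwt/wt of the same run was -1.60 in GRD/D, -1.70 in GRD+L/D+L, -1.88 in GRko/ko and -0.95 in GRL/L. For Mt2, it was -2.63 in GRD/D, -2.81 in GRD+L/D+L, -3.23 in GRko/ko and -1.03 in GRL/L. GRwt/wt itself differed between runs, by 1.09 for Mt1 and 1.04 for Mt2. Slc39a14 differed from GRwt/wt in GRko/ko, by -0.36. The comparisons within run 1 share the GRwt/wt libraries. Library sex differed between GRwt/wt of run 1 and the GRD+L/D+L, GRko/ko and run 2 libraries. The GRko mice are described on another strain background. The part of sex and strain in these differences was not tested.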

How the results depend on the processing

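The number of the 6 genes that passed moved by more than 1.5 times under the formula of the study, with GRwt/wt pooled over runs, to 1 for Dex in GRD/D, 0 in GRD+L/D+L, 4 for the difference of GRD/D and 4 for that of GRD+L/D+L from GRwt/wt, 0 for that of GRL/L and 1 for GRko/ko vehicle. With the size factors of DESeq2, 1 passed in GRD+L/D+L. Leaving out a library gave 1 to 2 for Dex in GRD/D, 1 in GRD+L/D+L, 0 to 2 for GRD/D vehicle and 1 to 3 for GRD+L/D+L vehicle.

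Over all genes, the formula of the study called 5207 genes for GRwt/wt (2159 in run 1), 1105 for the difference of GRD/D (509), 1227 for GRD+L/D+L (501), 2310 for GRko/ko (1314) and 115 for GRL/L (286). For GRD+L/D+L against GRD/D, 12 genes passed, but 0 with the size factors of DESeq2 or the formula of the study, 87 without a filter, 40 with DESeq2, and 2 with the replicate block or the run alone. For Dex in GRko/ko, 0 passed, 110 without a filter and 1 with DESeq2. Leaving out a library gave 0 to 21 genes for GRD+L/D+L against GRD/D and 0 to 6 for Dex in GRko/ko. It gave 1129 for Dex in GRD/D without Dex replicate 2 (1838), 190 for the GRL/L difference without GRwt/wt vehicle replicate 5 (286), 934 for GRD/D vehicle without GRwt/wt vehicle replicate 3 (1479) and 1170 for GRL/L vehicle without GRL/L vehicle replicate 1 (1757).

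Changes that turned direction had not passed. Under the formula of the study these were vehicle differences of Mt1 in GRD/D (0.11) and GRL/L (-0.18) and of Mt2 (0.13 and -0.18), and differences of the Dex change of Mtf1 in GRD+L/D+L (0.0317) and GRko/ko (0.014), Slc30a1 in GRL/L (-0.0413) and Slc39a8 in GRko/ko (-0.0807). The Mtf1 change in GRD/D was 0.00485 with the size factors, 0.00432 with at least 10 counts, 0.00508 with DESeq2, 0.00177 with the replicate block and 0.00156 with the run alone, and that of Slc30a1 in GRD+L/D+L was -0.000302 with at least 10 counts and -0.00247 with the run alone. The causes were not tested.

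Leaving out a library also turned some changes that had not passed, with these ranges of the log2 value. The Mt2 change in GRko/ko ran from -0.00923 to 0.0865. For Mtf1 the Dex change ran from -0.119 to 0.0165 in GRwt/wt of run 1, -0.0358 to 0.0652 in GRD/D and -0.133 to 0.0133 in GRko/ko. The Mtf1 difference from GRwt/wt ran from -0.016 to 0.119 in GRD/D, -0.0685 to 0.0689 in GRD+L/D+L, -0.103 to 0.0545 in GRko/ko and -0.111 to 0.0483 in GRL/L, and from -0.0332 to 0.0634 for GRL/L vehicle. For Slc30a1 the change ran from -0.00991 to 0.102 in GRD/D and -0.0598 to 0.0594 in GRD+L/D+L, and the difference of the latter from GRD/D from -0.115 to 0.0129. For Slc39a14 the GRL/L vehicle difference ran from -0.0343 to 0.0354. For Slc39a8 the change ran from -0.0911 to 0.133 in GRwt/wt of run 1 and -0.00096 to 0.193 in GRko/ko, the difference from GRwt/wt from -0.198 to 0.0258 in GRD+L/D+L and -0.0632 to 0.182 in GRko/ko, and the GRL/L vehicle difference from -0.0356 to 0.00838.

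Same-numbered libraries correlated at -0.079 to 0.116, with 1 of 18 pairs over 0.1 and 7 best with their own number. With 3 libraries per group this check cannot exclude pairing by number, and the main fit used no pairing. With the replicate block, 4 of the 6 genes passed in GRwt/wt of run 2 and 3 for the difference of GRD/D. Depth limits Slc39a8, at 101 to 341 counts per library.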
